A study of Mus musculus with 12 samples.

Results

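The comparison asked which genes differ when SOXC is deleted in fibroblast-like synoviocytes that were not stimulated with TNF. It used 6 of the 12 mouse libraries of the study, 3 knockout and 3 control, and the 17079 of 53341 genes (32.0%) whose normalized count was at least 10 in at least 3 of those 6 libraries. The cells came from the synovium of SoxC mice and were cultured. Control cells received the adenovirus Ade5CMV-eGFP, which makes a green fluorescent protein, and knockout cells received Ade5CMV-Cre, which makes the recombinase that cuts out floxed DNA. Both groups therefore carried an adenovirus with a CMV promoter, which is active in most cell types, and neither received TNF. The labels do not name the alleles that Cre recombines, the ages of the animals, or whether the 3 replicates of a group are separate animals or cultures, so the p-values measure only the spread between these samples, which may be technical. The other 6 libraries are the same adenovirus groups given 10 ng/mL recombinant human TNF for 16 h, and they are used only where a difference is set beside its value with TNF. Poly(A) RNA was sequenced as paired reads.

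SOXC is the group of SRY-related transcription factors made of SOX4, SOX11 and SOX12, which share a nearly identical DNA-binding domain and act redundantly in many embryonic tissues. They are needed for the survival and growth of mesenchymal and neural progenitors, and in the developing skeleton for the formation of joints and growth plates. Fibroblast-like synoviocytes line the joint cavity, secrete lubricin and hyaluronan, and produce chemokines and matrix-degrading enzymes in arthritis. SOXC proteins bind short motifs of the SOX family, ACAAAG and ACAATG.

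The libraries numbered 3 stood apart from the other 4. On the first principal component of the 6 libraries, which held 76.2% of the variance over genes, the controls scored -49.7, -49.1 and 48.2 and the knockouts -24.9, -41.8 and 117, replicates 1 to 3 in that order. The differences between knockout and control followed the GC content of transcripts, most in the pair numbered 3. With the genes in 5 groups by GC, in the lowest group, with a median of 40.9%, the median difference between knockout 3 and control 3 was -0.77 on the log2 scale, and in the highest, with a median of 57.8%, it was 0.51. The same range was -0.15 to 0.10 for the replicates numbered 1 and -0.01 to 0.01 for those numbered 2. Estimated depth was lowest in knockout replicate 3, at 8.61 M read pairs, and highest in control replicate 1, at 13.4 M. The labels name no batch, so the part of library quality in any difference below was not tested, and for many genes and lists the difference adjusted for GC content and transcript length, or without 1 library, is given as well.

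**Figure D1:**
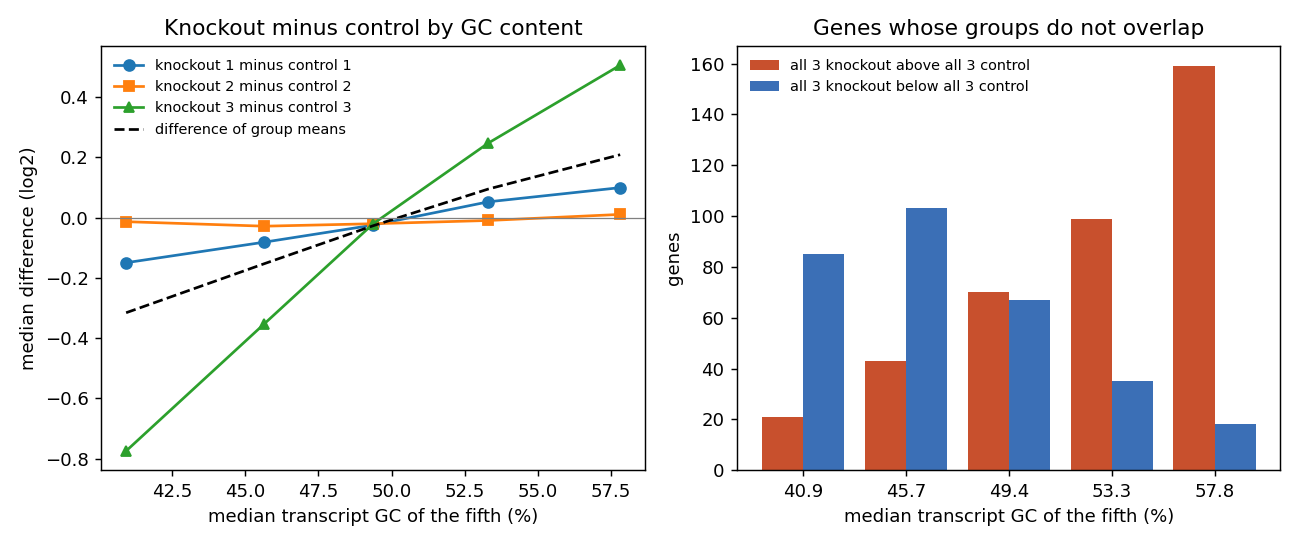
Left, the median difference between knockout and control on the log2(normalized count + 1) scale (y axis) in 5 groups of genes of rising transcript GC content (x axis, median GC of the group in percent), for the 3 same-number pairs of libraries (coloured lines) and for the group means (dashed). Right, the number of genes (y axis) whose 3 knockout libraries all lay above or all lay below the 3 controls, in the same groups of genes. Knockout 3 minus control 3 runs from -0.77 to 0.51 while the pair numbered 2 stays near 0, and the genes higher in all knockout libraries number 21 in the lowest group and 159 in the highest.

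No gene passed the test over all genes. With limma on log2(normalized count + 1), 0 genes were called higher and 0 lower at a Benjamini-Hochberg adjusted p under 0.05 (percent called 0% in each direction), and the smallest adjusted p was 0.999. At an unadjusted p under 0.05 the limma fit held 79 genes that were higher (0.463%) and 55 that were lower (0.322%), 134 in all, where 854 would be expected with no difference at any gene. When the replicate number entered the limma fit as a block, again 0 genes were called, and the smallest adjusted p was 0.192, for Sox4. At an unadjusted p under 0.05 that fit held 265 higher genes (1.55%) and 492 lower ones (2.88%). With that block and values adjusted for GC content and transcript length, exactly 1 gene was called lower (0.00586%) by limma, Sox4, at an adjusted p of 0.0299. That adjustment was chosen after the data were seen. All differences described below are therefore measured values that did not pass the test, apart from Sox4 in that last fit.

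The labels call the cells a SOXC knockout without naming the genes cut, and among the 3 SOXC genes the largest difference was at Sox4. Sox4 (ENSMUSG00000076431, chromosome 13, 28948919 to 28953713 of mm10, minus strand) stood at normalized counts of 4238, 4143 and 1857 in controls 1 to 3 and at 1432, 1433 and 548 in knockouts 1 to 3. Every knockout library was below every control library, although control replicate 3 was nearer to the knockouts than to the other controls. The means were 3413 ± 1348 (SD, n = 3) in control and 1138 ± 511 (SD, n = 3) in knockout cells, which left 33.3% of the control level. In RNA from a whole culture, less transcript per cell and fewer cells with the transcript cannot be told apart. The difference of group means was -1.62 on the log2 scale (limma SE 0.48), with same-number differences of -1.56, -1.53 and -1.76. The exact two-sided permutation test over the 6 libraries gave p = 0.1, the smallest value that 3 against 3 libraries allow.

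Part of the Sox4 value depends on how reads were divided between overlapping genes. Gm26735, a gene on the opposite strand (chromosome 13, 28943048 to 28951671), overlaps Sox4 and stood at 0, 0 and 855 in controls 1 to 3 and at 599, 647 and 218 in knockouts 1 to 3. Sox4 was highest in the control libraries where Gm26735 was listed at 0. Nothing in the sources used here says that reads were counted by strand, so the genes were also summed. The sum was 4238, 4143 and 2712 in the controls and 2032, 2080 and 766 in the knockouts. The groups still did not overlap, and the difference was -1.29 on the log2 scale, with same-number differences of -1.06, -0.99 and -1.82 and 44.0% of the control level left. Summed in this way, Sox4 was not called in the limma fit with the replicate block and the GC and length adjustment (adjusted p = 0.18 in 12 libraries and 0.33 in the 6), so its call rests on reads assigned to Sox4 alone.

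Sox11 (ENSMUSG00000063632, chromosome 12, 27334264 to 27342574, minus strand) stood at 269, 272 and 153 in controls 1 to 3 and at 175, 157 and 26.8 in knockouts 1 to 3. Each knockout was below the control of its number, but knockouts 1 and 2 were above control replicate 3, so the groups overlapped. The difference of group means was -1.29 on the log2 scale, with 51.7% of the control level left and an exact two-sided permutation p of 0.3. The pair numbered 3 carried much of it: the difference was -2.47 in that pair, against -0.61 and -0.79 in the others, and without knockout replicate 3 the group difference was -0.43.

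Sox12 (ENSMUSG00000051817, chromosome 2, 152393611 to 152398063, minus strand) stood at 352, 342 and 162 in controls 1 to 3 and at 230, 194 and 259 in knockouts 1 to 3. Knockouts 1 and 2 were below their controls and knockout 3 was above its control. The difference of group means was -0.25 on the log2 scale, with an exact two-sided permutation p of 0.6. It was -0.72 without the libraries numbered 3, -0.62 without control replicate 3 alone, and -0.44 after the GC and length adjustment. In the libraries with TNF the differences were -1.30 for Sox4, -1.60 for Sox11 and -1.19 for Sox12, and the groups did not overlap for any of the 3 genes, with an exact two-sided permutation p of 0.1 each.

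**Figure D2:**
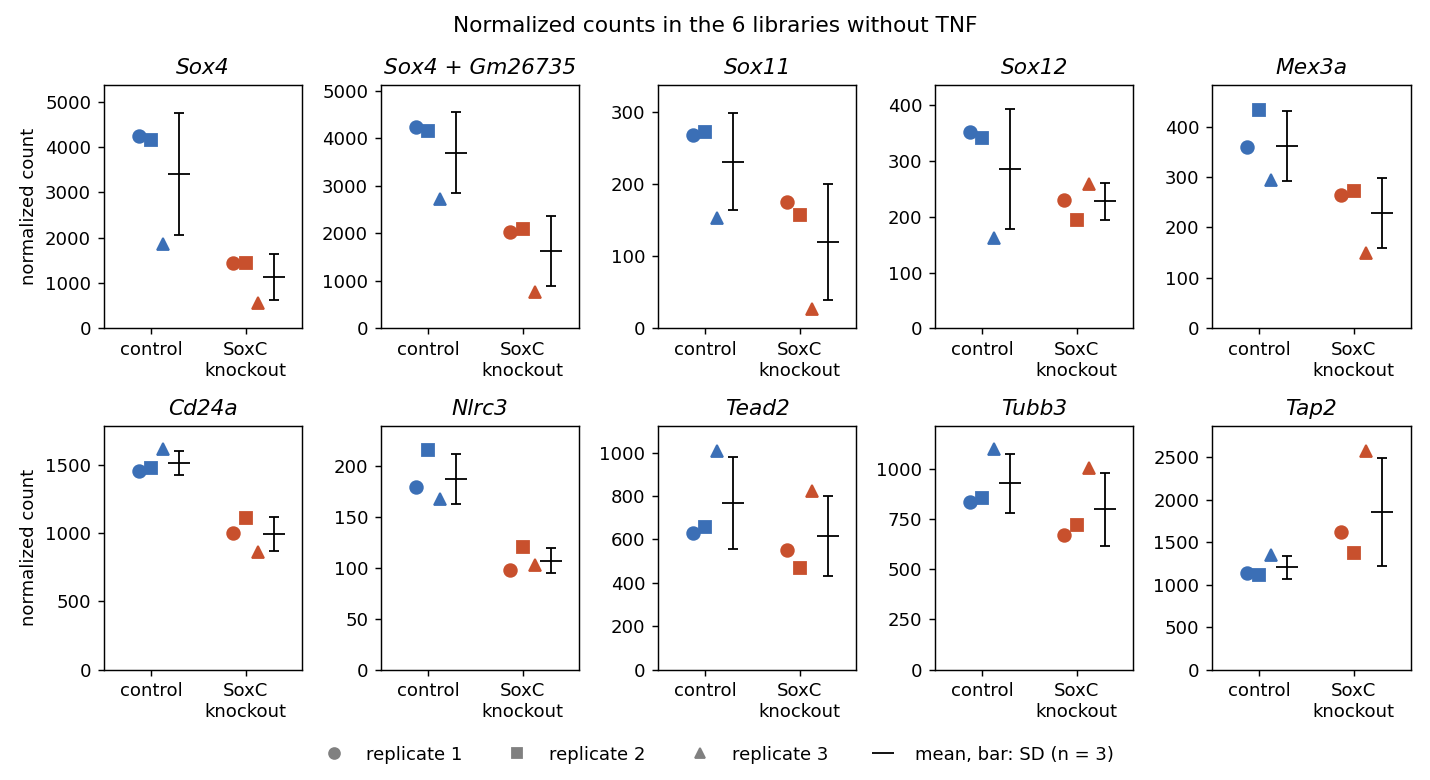
Normalized counts (y axis, linear from 0) of 10 genes or sums in the 3 control and 3 knockout libraries without TNF; the marker shape gives the replicate number, and the black line and bar give the mean and SD of 3 libraries. Sox4, alone or summed with the overlapping Gm26735, and Mex3a, Cd24a and Nlrc3 sit lower in all 3 knockout libraries than in any control, and Tap2 sits higher. For Sox4, Sox11 and Tead2 the replicates numbered 3 lie away from the other replicates of their group.

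Across all genes, 392 had all 3 knockout libraries above all 3 controls (2.3%) and 309 had them all below (1.81%). These genes sorted by GC content: in the lowest of the 5 GC groups 21 were higher and 85 lower, and in the highest group 159 were higher and 18 lower. Among those whose higher group averaged 50 or more, the 12 largest differences in each direction were taken, with clone names and pseudogenes left out, and 11 higher and 12 lower genes are described next. Being chosen for separated groups, their values are a description.

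Besides Sox4, the lower genes with the most even differences between pairs were Mex3a, Cd24a, Nlrc3, Cd38 and Clip4. Mex3a encodes an RNA-binding protein with a ubiquitin ligase domain that is found in stem and progenitor cells. Mex3a (ENSMUSG00000074480, chromosome 3, 88532395 to 88541396) stood at 360, 433 and 293 in controls 1 to 3 and at 264, 273 and 150 in knockouts 1 to 3. Its mean was 362 ± 69.7 (SD, n = 3) in control and 229 ± 68.8 (SD, n = 3) in knockout cells, a difference of -0.69 on the log2 scale (limma SE 0.29). In the libraries with TNF, which this choice did not use, Mex3a stood at 331, 335 and 207 in controls 1 to 3 and at 177, 177 and 142 in knockouts 1 to 3, a difference of -0.79 with no overlap. Without knockout replicate 3 its difference without TNF was -0.41. Among the named genes separated in the same direction with and without TNF, only Sox4 and Snap25 had a larger difference in both settings. Snap25, of the Schwann and neuronal list, differed by -1.59 without and -1.95 with TNF. It was a low gene, at a mean of 26.3 in control and 8.30 in knockout cells without TNF. Its same-number differences without TNF were -1.02, -0.15 and -3.60. The difference was -1.02 without knockout replicate 3 and -1.15 after the GC and length adjustment.

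Cd24a, a glycosylated surface protein of progenitor and immune cells, stood at 1453, 1474 and 1611 in controls 1 to 3 and at 1000, 1112 and 863 in knockouts 1 to 3. The controls lay close together and the knockouts kept 65.6% of their mean, with same-number differences of -0.54, -0.41 and -0.90. Nlrc3, an intracellular NOD-like receptor that dampens innate immune signalling, stood at 179, 216 and 168 in controls and at 98.3, 121 and 103 in knockouts. Its same-number differences of -0.86, -0.83 and -0.71 were the most even of the 12 lower genes, but with TNF its difference was 0.09. Cd38, an enzyme that consumes NAD, stood at 119, 118 and 91.2 in controls and at 62.8, 82.9 and 55.0 in knockouts. Adjusted for GC and length, the differences were -0.44 for Cd24a, -0.82 for Nlrc3 and -0.41 for Cd38.

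Several of the remaining lower genes leaned on the pair numbered 3. Zfp2, a zinc finger protein gene, had the next largest difference after Sox4, -1.60, made of -0.50, -1.03 and -3.26 in the pairs numbered 1 to 3, and knockout replicate 3 stood at 5.88 where the others stood at 34.9 or more. Thnsl1 (-0.75), Zfp874b (-0.66) and Osgepl1 (-0.60) had their largest same-number difference in the pair numbered 3 as well, between -1.40 and -1.70, and transcripts of 39.3% to 42.3% GC. Without knockout replicate 3 the differences were -0.73 for Zfp2, -0.25 for Thnsl1, -0.26 for Zfp874b and -0.23 for Osgepl1. Adjusted for GC and length, those of Thnsl1, Zfp874b and Osgepl1 were -0.47, -0.33 and -0.22. Fmn2, an actin nucleator of the formin family, differed by -0.92, and Fmo2, a flavin monooxygenase, by -0.81. Clip4, a protein of the family that binds microtubule ends, differed by -0.62, and by -0.41 without knockout replicate 3. Of the 12 lower genes 7 had a difference above 0 with TNF: Zfp874b at 0.52, Fmn2 at 0.42, Fmo2 at 0.34, Osgepl1 at 0.28, Cd38 at 0.21, Clip4 at 0.19 and Nlrc3 at 0.09.

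Of the 12 higher genes, the largest difference was at Tnni1. Tnni1, the slow skeletal muscle form of troponin I, stood at 19.1, 20.8 and 34.3 in controls 1 to 3 and at 92.6, 36.6 and 48.3 in knockouts 1 to 3, and knockout replicate 1 was far above the rest. Muscle transcripts moved with it in that library: Myh4, a fast myosin heavy chain, reached 188 in knockout replicate 1 and no more than 13.3 elsewhere among the 6 libraries. The 12 skeletal muscle markers summed to between 1055 and 1296 in control libraries and to 1719, 968 and 1741 in knockouts 1 to 3. None of the 12 was at 0 in all 6 libraries. Of the 9 kept 8 were higher, where 48.7% of all genes kept were. The median differences of the markers were 1.23, -0.18 and 0.23 in the pairs numbered 1 to 3. Their part in the Tnni1 difference was not tested.

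Angptl7, a secreted angiopoietin-like protein whose gene lies within Mtor on the opposite strand, stood at 99.6, 96.3 and 61.8 in controls 1 to 3 and at 191, 141 and 123 in knockouts 1 to 3. Each knockout was above its control by a similar amount (0.93, 0.55 and 0.98). Rdh12, a retinol dehydrogenase, stood at 47.8, 53.1 and 56.9 in controls and at 82.0, 86.8 and 88.5 in knockouts, with the evenest same-number differences of the higher genes described, 0.77, 0.70 and 0.63. Neither repeated with TNF, where the differences were -0.46 for Angptl7 and -0.23 for Rdh12. Drd4, a dopamine receptor, differed by 0.88, and Klk9, a kallikrein protease, by 0.85. Ttc9b (0.83), Dlk2 (0.76), Chrnb2 (0.75), Engase (0.72), Trp53i13 (0.66) and Lingo3 (0.65) were also among them. Chrnb2 rested on control replicate 1, which stood at 78.9 where the other 5 libraries stood at 243 to 302, and its difference was 0.19 without that library. Engase differed by 0.42 without knockout replicate 3. Adjusted for GC and length, Ttc9b differed by 0.53, Dlk2 by 0.45, Trp53i13 by 0.31 and Lingo3 by 0.40. With TNF the differences were -0.67 for Ttc9b, -0.63 for Chrnb2, -0.61 for Lingo3, -0.22 for Dlk2, -0.16 for Trp53i13 and -0.05 for Tnni1. Klk9, Drd4 and Engase differed by 0.61, 0.30 and 0.03 with TNF. Lingo3 was then lower in every knockout library than in any control. Transcript GC was above 57% for 6 of these 11 genes, where the median over all genes kept was 49.4%.

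**Figure D3:**
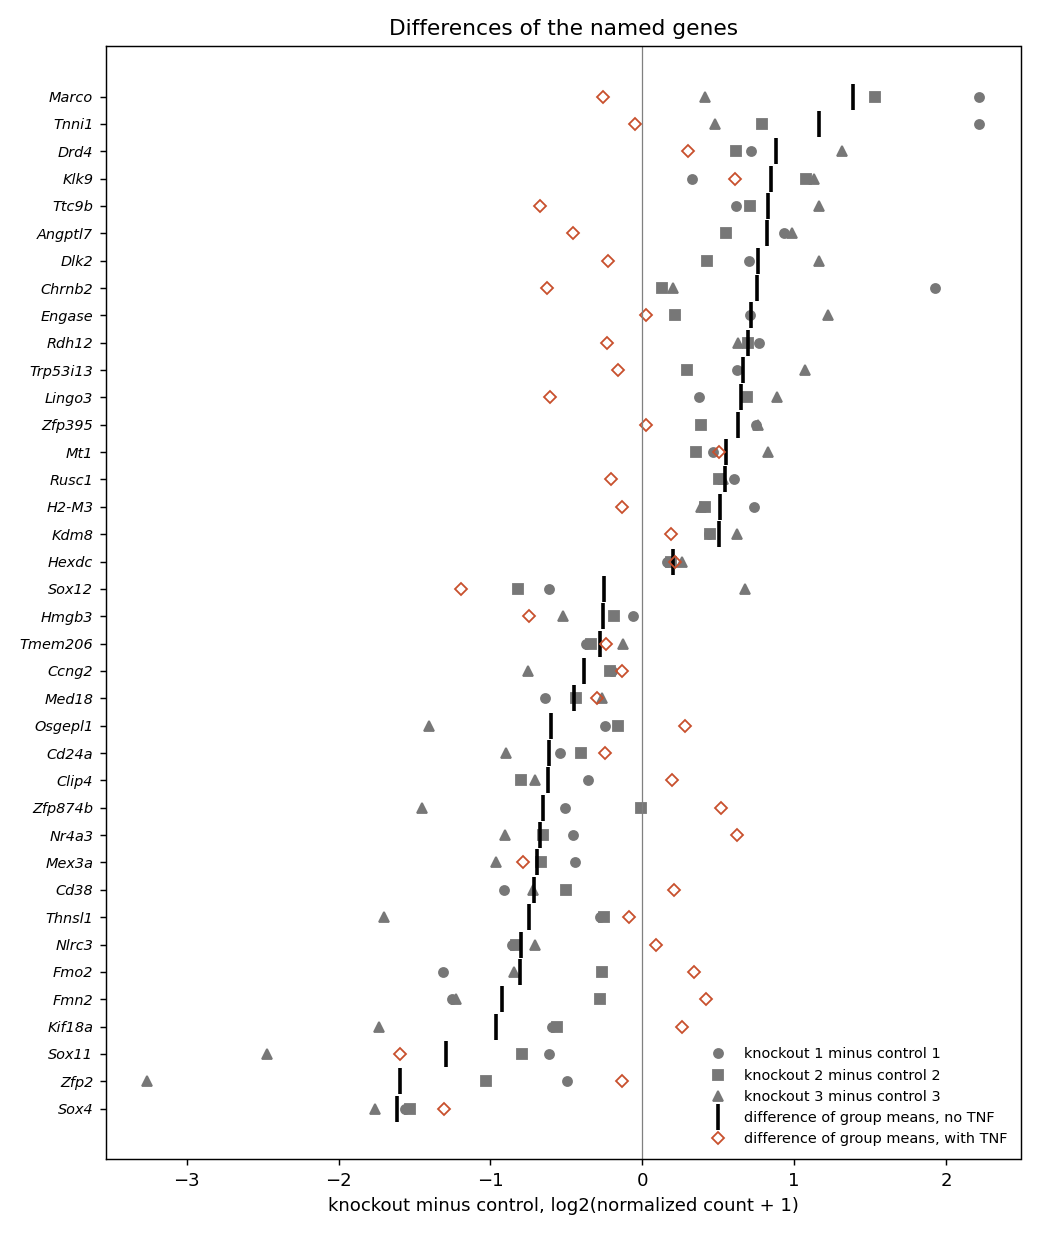
Knockout minus control on the log2(normalized count + 1) scale (x axis) for the SOXC genes and the genes named by size, by separation with and without TNF, or by the smallest p with the replicate block (y axis). Grey markers are the 3 same-number pairs of libraries without TNF, black ticks their group difference and open diamonds the group difference with TNF. Sox4 and Mex3a lie left of 0 for all pairs and with TNF, while most of the higher genes lie at or left of 0 with TNF.

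In the limma fit with the replicate number as a block, and among genes whose higher group averaged 50 or more, clone names and pseudogenes left out, the 5 smallest p-values of higher genes belonged to Marco, Rusc1, Zfp395, Mt1 and H2-M3, and those of lower genes to Sox4, Mex3a, Kif18a, Sox11 and Nr4a3. Mt1, a metallothionein that binds zinc and copper, stood at 4543, 5381 and 6392 in controls 1 to 3 and at 6263, 6888 and 11366 in knockouts 1 to 3. Each knockout was above its own control, by 0.46, 0.36 and 0.83, though knockout replicate 1 was below control replicate 3. Marco, a scavenger receptor of macrophages, stood at 17.5, 28.2 and 131 in controls and at 85.1, 83.6 and 175 in knockouts. Of the 8 macrophage markers kept 6 were higher, where 48.7% of all genes kept were. None of the 12 listed was at 0 in all 6 libraries. Their median differences in the pairs numbered 1 to 3 were 0.30, 0.21 and 0.16, against 2.22, 1.53 and 0.41 for Marco. The markers summed to 1461 to 3502 in control and 1724 to 4066 in knockout libraries, highest in replicate 3 of each group. Their part in the Marco difference was not tested. Nr4a3, an orphan nuclear receptor induced early after stimulation, stood at 187, 204 and 100 in controls and at 137, 129 and 52.98 in knockouts. Kif18a, a mitotic kinesin, stood at 174, 195 and 109 in controls and at 115, 132 and 32.2 in knockouts. Without knockout replicate 3 the differences were 0.29 for Mt1, 0.19 for H2-M3, -0.33 for Kif18a and -0.23 for Nr4a3, and that of H2-M3 was 0.89 without control replicate 3. The difference of Marco was 0.80 without control replicate 1 and 2.22 without control replicate 3. Adjusted for GC and length, Rusc1 differed by 0.33 instead of 0.55 and Kif18a by -0.45 instead of -0.96. With TNF the differences were 0.50 for Mt1, 0.02 for Zfp395, -0.13 for H2-M3, -0.21 for Rusc1 and -0.26 for Marco. Kif18a and Nr4a3 differed by 0.26 and 0.63 with TNF. Mt1 was then separated upward and Rusc1 downward.

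Genes described in earlier work as SOXC targets were next compared. Of 7 such genes 6 were kept, all 6 had a group difference below 0, as had 51.3% of all genes kept, and 5 were lower in all 3 same-number pairs, against 20.7% of all genes kept; the limma test called 0 of them. The median difference was -0.32 (all genes -0.01), and -0.26 after the GC and length adjustment; with TNF it was 0.19, in the other direction. Tead2 encodes a TEAD factor, the DNA-binding partner of YAP and TAZ, and its values are given in full because it is reported as a direct SOXC target; it was chosen after its values were seen. Tead2 (ENSMUSG00000030796, chromosome 7, 45215753 to 45233644) stood at 631, 658 and 1009 in controls 1 to 3 and at 551, 470 and 823 in knockouts 1 to 3. Each knockout was below its control, by -0.20, -0.48 and -0.29, while the groups overlapped because both libraries numbered 3 were high. With TNF, Tead2 stood at 596, 628 and 1039 in controls 1 to 3 and at 345, 444 and 459 in knockouts 1 to 3, with no overlap and a difference of -0.82.

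Tubb3, a tubulin of neurons, had the same form without TNF, with 834, 852 and 1098 in controls 1 to 3 and 669, 718 and 1005 in knockouts 1 to 3. Its difference was -0.23 without TNF and -0.52 with TNF. Adjusted for GC and length, the differences without TNF were -0.52 for Tead2 and -0.48 for Tubb3, both larger than unadjusted. The other members of the list were less even. Sema3c, a secreted guidance cue, differed by -0.39 and Ezh2, the methyltransferase of the Polycomb complex, by -0.43, each with the largest difference in the pair numbered 3. After the GC and length adjustment Sema3c differed by -0.05 and Ezh2 by -0.27; without knockout replicate 3 Sema3c differed by -0.00063. Dicer1, which cuts microRNA precursors, differed by -0.31, and by -0.02 after the adjustment. Sema3c, Ezh2 and Dicer1 differed by 0.50, 0.07 and 0.31 with TNF. Gdf5, a joint-forming BMP ligand, stood between 6.60 and 18.8 in all 6 libraries.

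Mex3d, a paralogue of Mex3a, was added after its values were seen. It stood at 870, 901 and 634 in controls 1 to 3 and at 660, 603 and 683 in knockouts 1 to 3. Knockouts 1 and 2 were below their controls and knockout 3 was not, and the difference was -0.29, or -0.56 after the GC and length adjustment. With TNF it was -0.60, and the groups did not overlap. The paralogues Mex3b and Mex3c were also chosen after their values were seen. Mex3b stood at 296, 285 and 159 in controls 1 to 3 and at 290, 257 and 91.2 in knockouts 1 to 3. Mex3c stood at 1638, 1671 and 752 in controls and at 1309, 1612 and 431 in knockouts. For Mex3b and Mex3c the groups overlapped both without and with TNF. The limma fit with the block and the GC and length adjustment was chosen after the data were seen. Ordered by its p over 17079 genes, Sox4 was in place 1, Mex3d 4, Cd24a 5, Tead2 7, Mex3a 8 and Nlrc3 9. The genes at the places between were left out here. Only Sox4 was called, and the limma adjusted p was 0.81 for Cd24a, Mex3a and Nlrc3.

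SOX motifs were looked for in the 250 bases before each start site, from the RefSeq promoters of GRCm38.p6. ACAAAG or ACAATG on either strand was in 25.2% of 32851 such windows, ACAAAG in 16.5% and ACAATG in 10.7%. Of the 12 named genes with the largest lower difference, 11 had a promoter in the table and 3 of these held a match, and of the 12 with the largest higher difference 11 had a promoter and 0 held one. The windows of Sox4, Sox11 and Mex3a held none, and that of Tead2 held ACAAAG. Among the genes named by the smallest p with the block, the direction was the other way. Marco, Rusc1 and H2-M3, which were higher, held a match, and the lower Sox4, Mex3a, Kif18a, Sox11 and Nr4a3 held none. A gene with several windows was counted if any held a match, while the 25.2% is a share of windows. The matches of the 3 lower genes and of Tead2 are printed to show what was found, 1 match a gene and the one farthest from the start site where there were several, 5′ to 3′ on the gene's strand with 12 bases on each side and the match in capitals. A match is a description of the sequence and not a binding site. They lie at chr7:45215752-45215781 on the plus strand for Tead2, chr17:71769633-71769662 on the plus strand for Clip4, chr1:162898564-162898593 on the minus strand for Fmo2 and chr2:21205485-21205514 on the plus strand for Thnsl1. The Tead2 match begins 28 bases before the RefSeq start site. Those of Clip4, Fmo2 and Thnsl1 begin 46, 88 and 227 bases before theirs. By the deposited annotation's coordinates, the Tead2 and Fmo2 matches lie inside the start of the gene. The Clip4 match lies far before the deposited start of that gene, at 71781947. The other windows of Clip4, nearer that start, held no match, and neither did the other window of Fmo2.
Tead2: cacttttcccaaACAAAGctcccggcaact
Clip4: gccaaggcatgtCATTGTtaggcattggtt
Fmo2: accctgggactgCTTTGTtgaataacttgg
Thnsl1: acgacatgaaaaCATTGTcccccccccccg

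In the Hippo pathway, kinases such as LATS keep YAP and TAZ out of the nucleus, where they would act with TEAD factors. Of 20 genes of YAP, TAZ, TEAD and Hippo, Tead2 included and all kept, 15 were lower and 5 higher, 12 were lower in all 3 pairs, and the median difference was -0.15, or -0.05 after the GC and length adjustment. The limma test called 0 of them. Tead1 (-0.33), Wwtr1, which encodes TAZ (-0.31), and Lats1, a kinase that inhibits YAP (-0.67), were lower, with their largest same-number difference in the pair numbered 3. Yap1 differed by -0.11. After the adjustment the differences were -0.01 for Tead1, -0.05 for Wwtr1, -0.29 for Lats1 and 0.14 for Yap1, so that the direction of Yap1 depends on it. Ctgf, a secreted matrix protein and a YAP target, stood at 24538, 23986 and 20546 in controls 1 to 3 and at 26305, 26466 and 28378 in knockouts 1 to 3, so that it was higher in all knockout libraries. Its difference was 0.24, and 0.16 without control replicate 3.

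Chemokines are secreted attractants of leukocytes. Of 22 chemokine genes 19 were kept, 17 were higher and 2 lower, where 48.7% of all genes kept were higher, 8 were higher in all 3 pairs against 19.2% of all genes kept, and the median difference was 0.17. After the GC and length adjustment it was 0.27, and with TNF it was -0.06. Cxcl12, which keeps leukocytes in stromal tissue, stood at 8203, 8272 and 8444 in controls 1 to 3 and at 9071, 8879 and 9157 in knockouts 1 to 3. The groups did not overlap, and the difference was 0.12, or 0.20 after the GC and length adjustment. Ccl17, a ligand of CCR4, was separated too, but at 7.47 to 19.6 in control and 21.5 to 26.4 in knockout libraries. Ccl2 and Ccl7, which attract monocytes, were higher in the pairs numbered 1 and 2 and not in the pair numbered 3: the differences of Ccl2 were 0.27, 0.34 and -0.01 and those of Ccl7 0.36, 0.27 and -0.10. The limma test called 0 of the chemokines.

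The NF-kB genes were split, with 12 of 20 higher and 8 lower and a median difference of 0.11, or 0.01 after the GC and length adjustment. Nfkb2, the precursor of the p52 subunit, stood at 1753, 1825 and 1410 in controls 1 to 3 and at 1990, 1939 and 2960 in knockouts 1 to 3, with no overlap and a difference of 0.45. It was 0.24 after the adjustment and 0.25 without knockout replicate 3. Relb, which pairs with p52, differed by 0.52, with same-number differences of 0.59, 0.19 and 0.79. Rela differed by 0.22, almost all of it in the pair numbered 3 (0.02, -0.12 and 0.76), and by -0.02 after the adjustment. Ikbkb, a kinase that releases NF-kB from its inhibitors, was lower in every knockout library, by -0.10. With TNF the differences were -0.19 for Nfkb2, -0.16 for Relb and -0.04 for Rela.

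The genes of antigen presentation load peptides onto class I molecules for display to T cells. All 13 were kept, 12 were higher, 11 were higher in all 3 pairs, and the median difference was 0.31. The list has a higher median transcript GC, 54.4%, than all genes kept, and after the GC and length adjustment its median was 0.16. Tap2, a subunit of the transporter that brings peptides to class I molecules, stood at 1137, 1112 and 1354 in controls 1 to 3 and at 1622, 1373 and 2575 in knockouts 1 to 3, with a difference of 0.58, or 0.32 without knockout replicate 3. It was the only one of the 13 with separated groups, where 2.3% of all genes kept were separated upward. H2-K1 and H2-D1, class I heavy chains, differed by 0.28 and 0.31, Psmb9, a subunit of the immunoproteasome, by 0.41, and B2m, the light chain, by 0.13. After the adjustment they differed by 0.11, 0.11, 0.29 and 0.33 in the same order. The limma test called 0 of the 13. With TNF the median of the list was -0.24, and the difference of Tap2 was -0.18.

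Of 24 ribosomal protein genes, all kept, 23 were higher and 18 were higher in all 3 pairs, with a median of 0.22. Their transcripts are short, and short transcripts were higher at large: with the genes in 5 groups by length, the group with a median of 1021 bases had a median difference of 0.14 and the group with a median of 6529 bases -0.20. After the GC and length adjustment the median of the ribosomal genes was 0.08, and with TNF it was -0.27. Glycolysis and hypoxia genes were higher for 19 of 22, with a median of 0.16 (0.08 adjusted), and p53 and senescence genes for 15 of 19, with a median of 0.17 (0.04 adjusted). In these 3 lists the limma test called 0 genes.

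The labelled cell type was checked by its markers. Of 12 fibroblast-like synoviocyte markers, all kept in both groups, 6 were higher and 6 lower, with a median of -0.02. Markers of other cells were present at lower sums. Schwann and neuronal markers summed to 2144 to 4297 in control and 2038 to 4334 in knockout libraries. Neutrophil markers summed to 482 to 1411 and 556 to 1838, most of it from Camp, with S100a9 and Ngp at 0 in all 6 libraries. Liver markers summed to 121 to 160 and 107 to 291, with Trf at 89.9 to 205 and Alb at 7.54 or less over the 6 libraries. Lubricin (Prg4) stood at 18346, 16642 and 5886 in controls 1 to 3 and at 17951, 16499 and 8450 in knockouts 1 to 3, so that replicate number and not genotype separated the libraries. Of 18 collagen genes 15 were higher, with a median of 0.21, but the medians of the pairs were 0.06, 0.00 and 0.64. Col1a1 stood at 200391, 187287 and 77152 in controls and at 216838, 192661 and 133782 in knockouts, lowest in the replicates numbered 3. Col16a1, which associates with collagen fibrils, was the only collagen with separated groups, at 3994, 3920 and 2534 in controls and 5157, 4163 and 4500 in knockouts. Its difference was 0.43, or 0.21 without control replicate 3 and 0.26 after the GC and length adjustment. Of all genes kept, 2.3% were separated upward. Cell cycle genes were lower for 15 of 22, with a median of -0.08, or -0.02 after the GC and length adjustment.

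**Figure D4:**
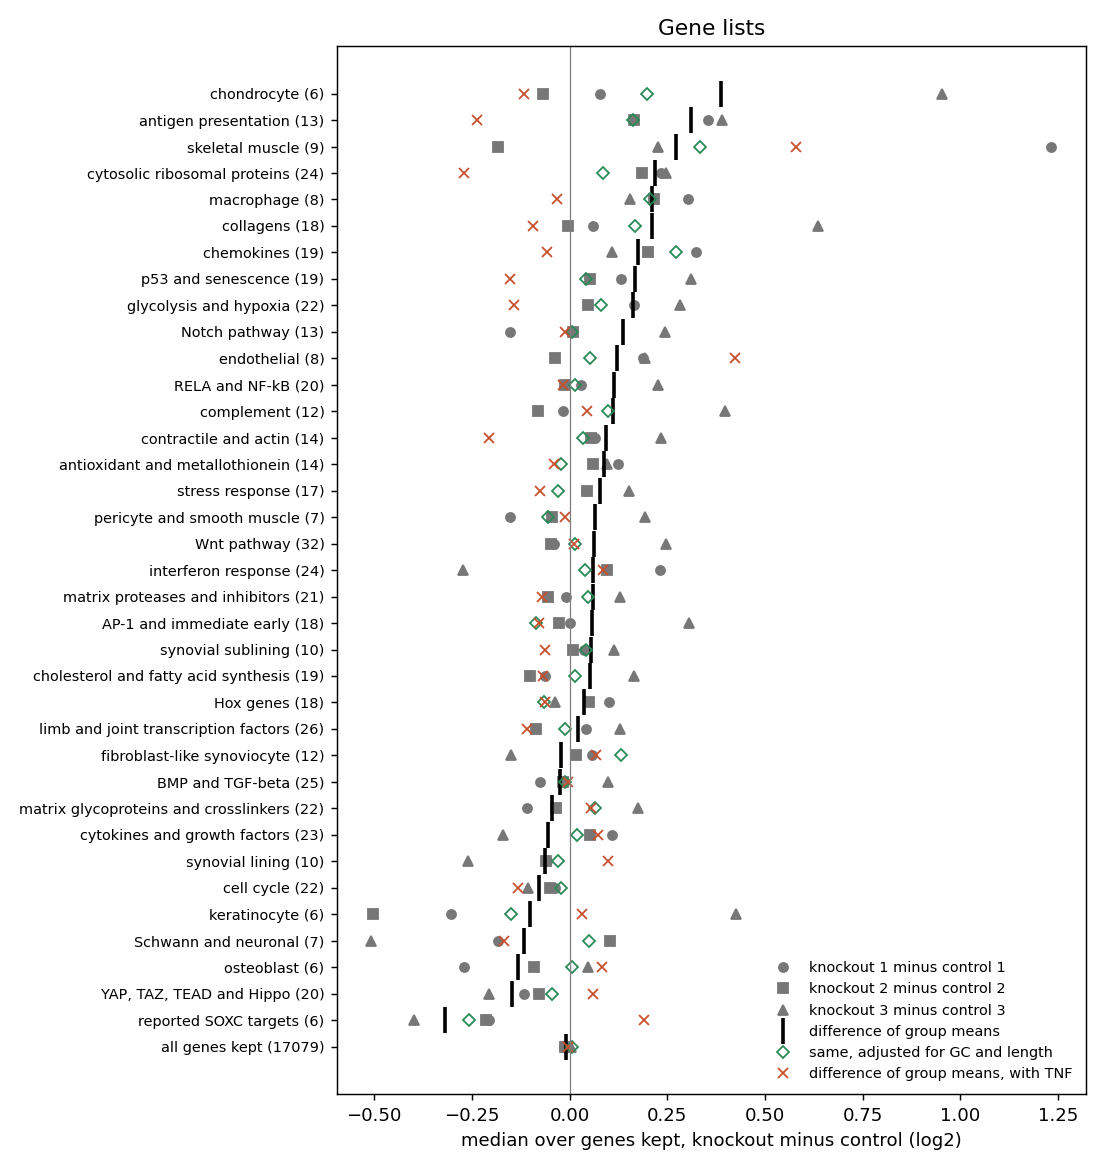
Median difference between knockout and control over the genes kept of each list (x axis, log2 scale), with the number of genes kept in brackets (y axis; lists with under 6 such genes and the other Sox genes are not drawn). Grey markers are the same-number pairs, black ticks the group difference, diamonds the group difference adjusted for GC and length, and crosses the group difference with TNF. Antigen presentation lies at 0.31 without TNF and at -0.24 with TNF, reported SOXC targets lie at -0.32 and 0.19, and the collagens reach 0.64 in the pair numbered 3 against 0.06 and 0.00 in the others.

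The differences without and with TNF, which share no library, ran in opposite directions over genes. Across the 17079 genes Pearson's r between the differences was -0.39, and -0.16 after the GC and length adjustment; genes are not independent replicates, and the median difference with TNF went from 0.26 in the lowest GC group to -0.22 in the highest, against -0.32 to 0.21 without TNF. Of the genes separated in both settings, 9 were lower in both, 5 were higher in both and 38 were separated in opposite directions; with TNF alone, 2.74% of the genes were separated upward and 2.29% downward. By the rule on clone names and level, Sox4, Mex3a, Med18, Hmgb3, Tmem206 and Ccng2 were lower in both and Kdm8 and Hexdc higher in both. Klk9 was higher in both as well, but it averaged 28.7 in control and 44.2 in knockout libraries with TNF, below the level of 50. Med18, a subunit of the Mediator complex, stood at 121, 98.2 and 114 in controls 1 to 3 and at 77.3, 72.3 and 94.6 in knockouts 1 to 3 without TNF, a difference of -0.45, and differed by -0.30 with TNF. Kdm8, a hydroxylase with a JmjC domain, stood at 77.0, 70.3 and 67.4 in controls and at 105, 96.2 and 104 in knockouts, a difference of 0.50, and differed by 0.19 with TNF. Hmgb3, a chromatin protein of the HMG box family, differed by -0.26 without and by -0.74 with TNF, and by -0.14 without TNF when control replicate 3 was left out. Ccng2, a cyclin-related gene, differed by -0.39, or -0.09 after the GC and length adjustment and -0.18 without knockout replicate 3. The limma test of the change in the knockout difference with TNF called 0 genes, with 233 at an unadjusted p under 0.05; with the replicate block it also called 0, with 3034.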

How the data were processed

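Mouse fibroblast-like synoviocytes were measured by poly(A) RNA sequencing in 12 libraries, 3 in each of 4 groups taken from the labels. The authors deposited 1 table of log2 normalized counts with no pseudocount, per the file headers and values; per the submitters' processing notes DESeq and the mm10 genome were used, and for the aligner and the counter the sources used here give no name. Values were raised to the power of 2 and taken as log2(count + 1). Low values step by fractions of a read (53.8% to 63.2% lay within 0.01 of a whole step or of 0.5 of one), so no read numbers could be restored and count models were left aside. Genes were kept if 3 or more of the 6 libraries had a normalized count of 10 or more. The test was limma 3.58.1 in R 4.3.3, with an intensity trend and 1 mean per group over 12 libraries (8 residual degrees of freedom). Benjamini-Hochberg adjustment ran over all genes kept, and the test was also run on simulated data. The simulated counts had no effect of replicate number or GC content, so they do not show the power of the test in these data. SOXC genes were also tested by exact permutation in Python 3.11.15. For GC and length, lowess curves (span 0.3) on transcript GC and length were subtracted from each library. Motifs were searched on both strands.

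Named genes were Sox4, Sox11, Sox12, up to 12 per direction with the largest difference among those with no overlap and a mean of at least 50, up to 8 per direction separated in both settings, up to 5 per direction with the smallest p with the block, and from each list up to 3 members with no overlap or else the most abundant. Of the genes the rule names, 1 is not reported here, some named by the list part are not described, and those added after their values were seen are marked. Members and lists were chosen with earlier results of these data known. Older symbols replaced 3 list symbols missing from the table.

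Same-numbered control and knockout libraries deviated together from the mean of their groups (correlations 0.54, 0.59 and 0.75), above the 0.1 used as the criterion, so the number was treated as pairing. The libraries numbered 3 drive this: control 1 correlated at 0.56 with knockout 2.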

Additional observations from a re-analysis of the deposited data

How the results depend on the processing

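Settings were changed one at a time, apart from fits that join the GC and length adjustment, the replicate block or the leaving out of the libraries numbered 3; those that adjust for GC and length, leave out libraries numbered 3 in the 6 alone, or sum Sox4 with Gm26735 were chosen after the data were seen. Among genes called lower, the count was 1 instead of 0 with the GC and length adjustment together with the replicate block, in 12 or in 6 libraries; the gene was Sox4, at -1.59. Summed with Gm26735, Sox4 had limma adjusted p-values of 0.18 to 0.999. With the replicate block alone the count of genes called stayed 0, and the Sox4 difference was -1.62 with adjusted p = 0.192 in 12 libraries and 0.05001 in 6. The test of a changed difference with TNF called 1 gene, Fam219aos, without the 2 libraries that hold liver transcripts. Genes at an unadjusted p under 0.05 numbered 134 in the main limma test, 764 with no filter, 46 with at least 50 in at least 3 libraries, 757 with the block in 12 libraries and 1685 with it in 6. Genes higher in all knockout libraries numbered 392, and 701 with no filter, 228 with the stricter filter, 3473 without the libraries numbered 3 and 603 to 2823 without 1 replicate; genes lower in all numbered 309, and 676, 199, 3994 and 503 to 3130, where fewer libraries make separation easier. Leaving out 1 replicate moved the difference to between -1.16 and -2.01 for Sox4, -0.43 and -1.76 for Sox11, and -0.06 and -0.62 for Sox12. Of 1794 values of the 82 other named genes under alternatives, 105 moved by over 1 SD and 68 had the other sign, 0 of them among the 38 genes named for size, repetition or p. Many of these 38 were chosen for groups that do not overlap, and such a gene keeps its sign whichever library is left out. The 0 is therefore no measure of their stability. With 3 libraries a group and 8.61 to 13.4 M estimated read pairs, small differences of low genes could not be resolved.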

Other observations

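Hox genes set position along the limb and body. Of 21 Hox genes 18 were kept, 11 were higher and 7 lower, with a median difference of 0.04 on the log2 scale. Hoxa10 stood at 1173, 1133 and 1239 in controls 1 to 3 and at 1112, 1106 and 903 in knockouts 1 to 3, a difference of -0.19, while Hoxd11 stood at 299, 241 and 290 in controls and at 356, 314 and 320 in knockouts, a difference of 0.26. The groups did not overlap for either gene, and they lay on opposite sides. Hoxc6 was separated upward too, by 0.60, at 15.5 to 16.3 in control and 22.8 to 27.7 in knockout libraries. That made 2 separated Hox genes higher and 1 lower, where 2.3% and 1.81% of all genes kept were. Adjusted for GC and length, the differences were -0.31 for Hoxa10 and 0.51 for Hoxd11, and leaving out knockout replicate 3 for Hoxa10 or control replicate 2 for Hoxd11 gave -0.09 and 0.16. Of 18 immediate early genes 11 were higher, and Jun, a subunit of AP-1, stood at 2833, 2776 and 2781 in controls and at 3281, 2936 and 3395 in knockouts. Its difference was 0.19, or 0.04 after the GC and length adjustment.

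Of the antioxidant genes, Gclc and Slc7a11 were lower in all knockout libraries than in any control, as were 1.81% of all genes kept. Gclc, the catalytic subunit of the enzyme that limits glutathione synthesis, stood at 2125, 2210 and 2493 in controls 1 to 3 and at 1694, 2002 and 1833 in knockouts 1 to 3, a difference of -0.30. Slc7a11, the cystine carrier that feeds this pathway, stood at 1640, 1634 and 1741 in controls and at 1350, 1565 and 1530 in knockouts, a difference of -0.18, or -0.11 without knockout replicate 1. The adjustment for GC and length gave -0.23 for Gclc and 0.33 for Slc7a11, so the direction of Slc7a11 depends on it. Limma called neither gene, and 6 of the 14 antioxidant and metallothionein genes were lower.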
